A study of Homo sapiens with 33 samples.

Results

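The genes of chemokines that attract monocytes and lymphocytes were followed: CCL2, CCL5, CCL7, CCL20, CCL26, CX3CL1, CXCL10, CXCL11, CXCL12 and CXCL16. They were chosen by symbol, each symbol gave 1 row of the matrix, and they are 10 of its 58302 genes. RNA-seq was carried out on 33 libraries of 6 established cell lines. H2052, H2452, H28 and MSTO-211H are malignant pleural mesothelioma (MPM) lines sensitive to palbociclib, an inhibitor of CDK4 and CDK6. The resistant lines are MPP89, from MPM and carrying a mutation in RB1, and MeT-5A, normal mesothelial cells immortalized by SV40. Each independent experiment gave a library of cells kept in the solvent (DMSO, 0.1%) and a library of cells kept in palbociclib (1 µM), after 9 or 10 days. There were 2 such pairs in H2052, 3 each in H2452, H28 and MSTO-211H, 2 in MPP89 and 1 in MeT-5A, which makes 11 pairs of sensitive and 3 of resistant lines. Each sensitive line also gave 1 library after 10 days of palbociclib followed by 48 h of washout without the drug, and MeT-5A gave 1 library with no treatment. Each group is a single established line, so replicates are repeats of that line and not of a patient.

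Chemokines are small secreted proteins that guide leukocytes along a gradient by binding G protein-coupled receptors on them. CCL2 and CCL7 draw monocytes through CCR2, CCL5 draws T cells and monocytes, CCL20 acts through CCR6, and CCL26 acts through CCR3, for which it is best known in eosinophils. CX3CL1 and CXCL16 are made as membrane-anchored proteins that ADAM proteases release, CXCL10 and CXCL11 are induced by interferons and act through CXCR3, and CXCL12 binds CXCR4 and ACKR3. Mesothelial cells are known to secrete chemokines into the pleural space during inflammation.

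Stretches of 250 bases before the RefSeq start (GRCh38.p14) are shown for the members called after palbociclib that matched the promoter table, CCL20 and CCL26, and for CXCL10 and CXCL11, which were found mainly in MPP89. Of the 10 members, 6 matched that table. Capitals mark matches, on either strand, to GGG and CC parted by any 5 bases, a form of the kappaB site bound by NF-kB, or to GAAA and GAAA parted by any 2 bases, the core of the interferon-stimulated response element. The CCL20 stretch lies at chr2:227813592-227813841 on the plus strand, that of CCL26 at chr7:75789747-75789996 on the minus strand, that of CXCL10 at chr4:76023498-76023747 on the minus strand and that of CXCL11 at chr4:76036071-76036320 on the minus strand.
CCL20: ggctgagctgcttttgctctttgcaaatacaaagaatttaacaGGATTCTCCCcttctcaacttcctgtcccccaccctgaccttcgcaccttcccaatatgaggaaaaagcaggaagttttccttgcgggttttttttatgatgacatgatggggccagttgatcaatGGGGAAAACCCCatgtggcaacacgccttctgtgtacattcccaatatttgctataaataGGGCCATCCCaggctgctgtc
CCL26: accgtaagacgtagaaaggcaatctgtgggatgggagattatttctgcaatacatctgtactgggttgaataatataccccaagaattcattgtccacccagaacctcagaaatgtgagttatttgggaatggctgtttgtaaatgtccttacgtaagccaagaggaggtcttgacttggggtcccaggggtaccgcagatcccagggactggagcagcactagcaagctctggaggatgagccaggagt
CXCL10: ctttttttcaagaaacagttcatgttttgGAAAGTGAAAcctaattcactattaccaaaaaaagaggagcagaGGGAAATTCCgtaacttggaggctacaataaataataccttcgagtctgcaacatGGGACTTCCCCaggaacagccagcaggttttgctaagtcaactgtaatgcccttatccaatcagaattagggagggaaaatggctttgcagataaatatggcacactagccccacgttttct
CXCL11: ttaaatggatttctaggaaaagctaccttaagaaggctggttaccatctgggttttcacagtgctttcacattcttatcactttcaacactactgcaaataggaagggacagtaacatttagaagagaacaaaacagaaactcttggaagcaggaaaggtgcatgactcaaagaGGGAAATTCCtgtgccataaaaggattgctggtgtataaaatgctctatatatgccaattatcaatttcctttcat
The kappaB letters were found in 4 of the 6 members in the table, CCL20, CXCL10, CXCL11 and CXCL12, and 54.4% of the 35116 promoters of the same length hold them. Matches that overlap one another are joined in 1 run of capitals. The interferon letters were found in CXCL10 and in 3.02% of all promoters. A further motif, TTC and GAA parted by any 4 bases, a form bound by STAT6, was in none of these 4 stretches and is in 5.38% of all promoters. A match describes letters and shows no binding.

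Levels are in CP20M, counts per 20000000 reads as scaled by the authors, and each column adds up to about 20000000, so depth cannot be read from totals. The spacing of the low values gave a depth of 12770000 to 19750000 reads for 23 libraries, where a read is worth up to 1.57 CP20M. The other 10 were at about 20000000 reads or more, and values of a few CP20M rest on a few reads. Of the 10 members, 7 reached 100 CP20M in at least 1 library and were tested among 17803 such genes. CCL7, CXCL10 and CXCL11 did not. CCL20 passed only through 2 palbociclib libraries, of H2052 and H28, and CCL26 only through a palbociclib library of MPP89 and the MSTO-211H washout library, so the tested set leans towards members that are high there. All 8 mesothelial markers were detected in at least 1 library, but MSTO-211H, MPP89 and MeT-5A held only 2 or 3 at 100 CP20M. Of 9 leukocyte markers, CD3E was listed at 0 in every library, MS4A1 stayed at 2 or less and PTPRC at 42 or less. CD14, a monocyte marker, reached 1130 in H2452, where the 9 leukocyte markers summed to 267 to 470 under DMSO and 374 to 1211 with palbociclib, and the part of this in the H2452 results was not tested. Over the sensitive lines palbociclib raised 1 of 7 tested mesothelial markers, CALB2, by 1.69 (limma adjusted p = 0.0041), and 0 of 2 tested leukocyte markers were called. Of all genes tested, 5.58% were called higher and 9.37% lower.

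**Figure D1:**
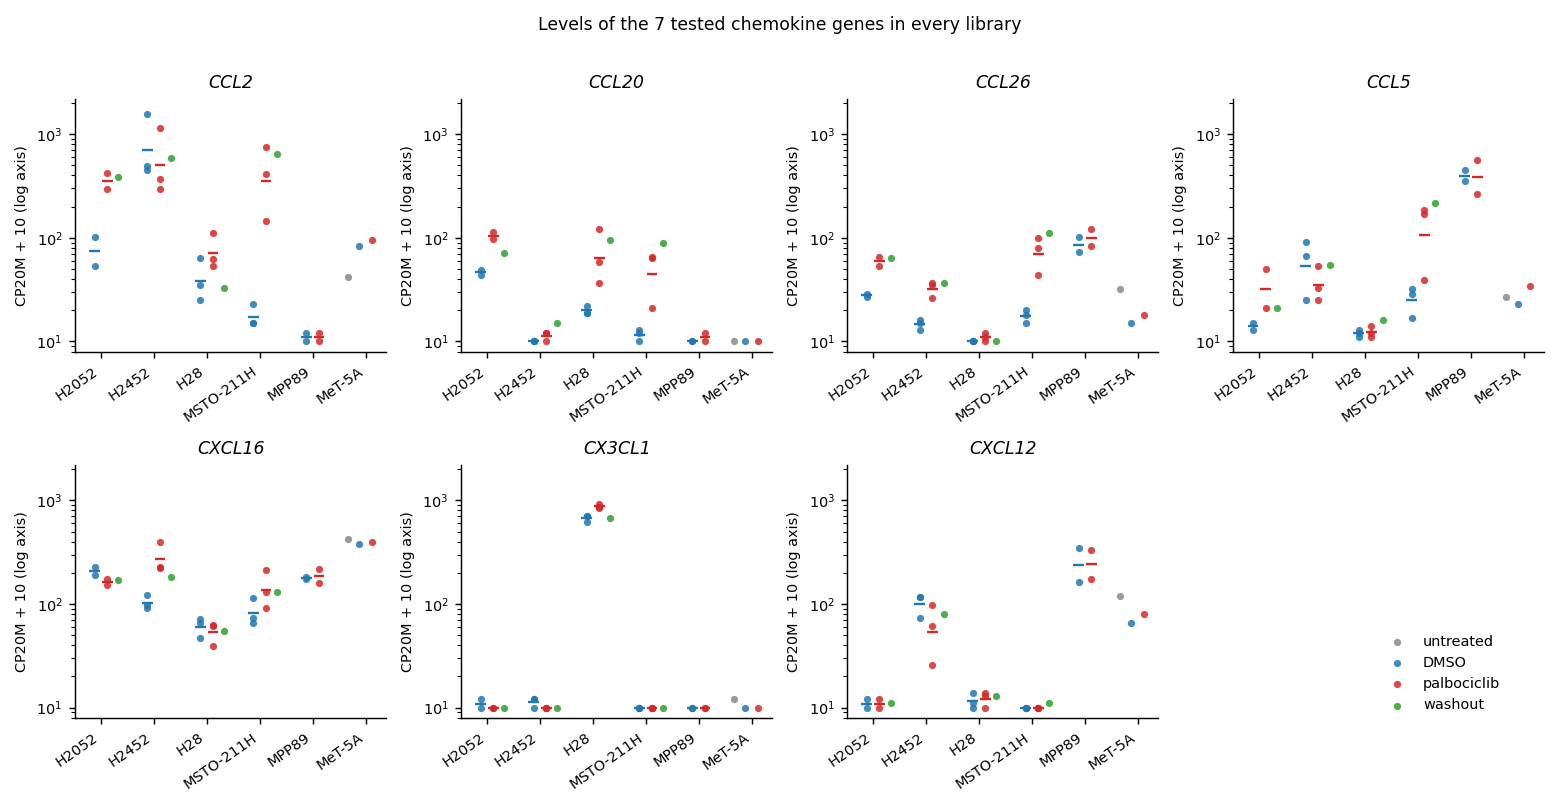
CP20M + 10 on a log axis for the 7 tested members in each line, with 1 point per library. Short bars are the mean of log2(CP20M + 10) where a group has more than 1 library. CX3CL1 stands out in H28 (611 to 919), and CCL2 spans 0 to 1564 across the lines.

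Under DMSO the members differed between the lines, and the leading chemokine was not the same in all of them. Per kb of exon, CXCL16 led in H2052 (70.9 CP20M per kb), MSTO-211H (26.9) and MeT-5A (132), CCL2 led in H2452 (428), CX3CL1 in H28 (113) and CCL5 in MPP89 (287). All 7 tested members differed among the lines (limma F test), as did 95.6% of all genes tested, so this is not particular to them. In comparisons of 2 lines below, the 1 MeT-5A library is assumed to vary like the other groups. With palbociclib, CCL2 became the leader in H2052 (180 CP20M per kb) and in MSTO-211H (221). The untreated MeT-5A library held 414 CP20M of CXCL16, 109 of CXCL12, 32 of CCL2, 22 of CCL26, 17 of CCL5 and 2 of CX3CL1, and the other 4 members were at 0.

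CCL2 (ENSG00000108691, chr17:34255274-34257208, plus strand), the main attractant of monocytes, was highest in H2452 at 441, 1564 and 478 CP20M under DMSO. It was at 44 and 91 in H2052, 73 in MeT-5A and 15, 54 and 25 in H28. MSTO-211H held 5, 13 and 5, and MPP89 held 0 and 2. Among neighbours in this order, H2052 and H28 (adjusted p = 0.14), H28 and MSTO-211H (adjusted p = 0.056) and MSTO-211H and MPP89 (adjusted p = 0.31) could not be told apart in limma. The 1 MeT-5A value of 73 lay between the H2052 values of 44 and 91.

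With palbociclib, CCL2 was called higher in 3 of the 4 sensitive lines. In H2052 it went from 44 to 287 and from 91 to 408. In H28 it went from 15 to 44, 54 to 102 and 25 to 52, and in MSTO-211H from 5 to 135, 13 to 404 and 5 to 746. The groups did not overlap in H2052 and MSTO-211H, but in H28 the highest DMSO value (54) lay above the lowest palbociclib values (44 and 52). In H2452 it went the other way in each pair, from 441 to 363, 1564 to 1133 and 478 to 284. On the log2(CP20M + 10) scale H2052 changed by 2.25 (SE 0.19, limma adjusted p = 0.037), H28 by 0.91 (SE 0.12, adjusted p = 0.030) and MSTO-211H by 4.37 (SE 0.51, adjusted p = 0.035). In H28 6 of 9 alternatives ended the call, including no filter (adjusted p = 0.056) and no replicate block (adjusted p = 0.21). In H2452 the change of -0.49 (SE 0.11, adjusted p = 0.043) was under the 1.5-fold limit and was not called. Over all 11 pairs the change was 1.72 (SE 0.53, adjusted p = 0.016). Without MSTO-211H it was 0.72 (adjusted p = 0.11) and without H2052 1.60 (adjusted p = 0.064), so the call over all pairs rests on those lines. With the 4 line means as units adjusted p was 0.13.

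CCL7 (ENSG00000108688, chr17:34270221-34272242, plus strand), a neighbour of CCL2 that shares CCR2, never exceeded 3 CP20M and was listed at 0 in 24 of 33 libraries. No change in it could be detected at this depth.

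CCL20 (ENSG00000115009, chr2:227805739-227817564, plus strand), the ligand of CCR6, was low under DMSO. It was at 34 and 39 in H2052, 9, 9 and 12 in H28, 0, 3 and 2 in MSTO-211H and 0 in every DMSO library of H2452, MPP89 and MeT-5A. H2052 was above H28 and H28 above the rest, while MSTO-211H, H2452, MPP89 and MeT-5A could not be told apart (adjusted p from 0.24 to 1). With palbociclib H2052 held 87 and 104, H28 held 48, 27 and 113 and MSTO-211H held 56, 11 and 54, each above every DMSO value of its line. H2452 stayed at 2, 0 and 2. Over the sensitive lines the change was 1.25 (SE 0.25, limma adjusted p = 0.0013) with 10 of 11 pairs higher and 1 equal. By line it was 1.18 in H2052 (SE 0.15, adjusted p = 0.039) and 1.69 in H28 (SE 0.32, adjusted p = 0.042), which were called, and 1.94 in MSTO-211H (SE 0.46, adjusted p = 0.061), which was not. The palbociclib libraries of H2052 and H28 are those through which CCL20 passed the filter, and with no filter neither line was called (adjusted p = 0.069 and 0.055), while the change over the sensitive lines was (adjusted p = 0.0037). Because so many DMSO values are near 0, the size of these changes depends on the 10 added before taking logs, and with 50 added the change over the sensitive lines was 0.58, under the 1.5-fold limit.

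CCL26 (ENSG00000006606, chr7:75769533-75789896, minus strand), also named eotaxin-3, was highest under DMSO in MPP89, at 91 and 63. H2052 followed with 17 and 19, then MSTO-211H with 8, 5 and 10, MeT-5A with 5, H2452 with 6, 5 and 3 and H28 with 0 throughout. MSTO-211H and H2452 could not be told apart (limma adjusted p = 0.22). The 1 MeT-5A value lay within the range of both, and H28 minus MeT-5A was -0.585 on the log2(CP20M + 10) scale. With palbociclib H2052 held 43 and 56, H2452 held 25, 16 and 27 and MSTO-211H held 69, 34 and 89, with no overlap with DMSO in any of the 3 lines. In H28 it stayed at 1, 0 and 2. The change over the sensitive lines was 1.09 (SE 0.21, limma adjusted p = 0.00085), higher in 10 of 11 pairs and equal in 1. With 50 added before taking logs it was 0.48, under the 1.5-fold limit, and with line means as units adjusted p was 0.051. The calls by line were H2052 (1.08, adjusted p = 0.039), H2452 (1.14, adjusted p = 0.020) and MSTO-211H (2.0, adjusted p = 0.035). With no filter the H2052 call was lost (adjusted p = 0.087). H2452 was thus a line in which CCL26 rose while CCL2 did not.

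CCL5 (ENSG00000271503, chr17:35871491-35880793, minus strand), an attractant of T cells, was highest in MPP89, at 340 and 444 under DMSO. H2452 held 15, 57 and 81, MSTO-211H 7, 19 and 22, MeT-5A 13, H2052 3 and 5 and H28 2, 3 and 1. Neighbours from MSTO-211H down to H28 could not be told apart (adjusted p = 0.87 for MSTO-211H and MeT-5A, 0.32 for MeT-5A and H2052, and 0.70 for H2052 and H28). In MSTO-211H palbociclib gave 29, 161 and 177, above all DMSO values, a change of 2.10 (SE 0.35, limma adjusted p = 0.039). This call was ended by 6 of 9 alternatives. They include no filter (limma adjusted p = 0.058), 50 added before taking logs (0.054) and no replicate block (0.080). H2052 held 40 and 11 with palbociclib (change 1.21, SE 0.42, adjusted p = 0.12). H2452 held 15, 44 and 23 (change -0.59, SE 0.33, adjusted p = 0.23). In H28 it was between 1 and 4 in all 6 libraries. Over the sensitive lines CCL5 was not called (0.64, SE 0.34, adjusted p = 0.13). The value rests on single lines, at 1.11 (adjusted p = 0.024) without H2452 and 0.095 (adjusted p = 0.81) without MSTO-211H. A gene on the other strand that overlaps CCL5 did not exceed 6 CP20M.

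CXCL16 (ENSG00000161921, chr17:4733533-4739928, minus strand), the membrane-anchored ligand of CXCR6, was found in all 33 libraries. DMSO values were 369 in MeT-5A, 179 and 217 in H2052, 164 and 171 in MPP89, 87, 113 and 81 in H2452, 64, 105 and 56 in MSTO-211H and 55, 62 and 37 in H28. MeT-5A and H2052 (adjusted p = 0.053), H2052 and MPP89 (adjusted p = 0.54), H2452 and MSTO-211H (adjusted p = 0.27) and MSTO-211H and H28 (adjusted p = 0.12) were not separated. In H2452 palbociclib gave 217, 388 and 213, each above every DMSO value, a change of 1.40 (SE 0.14, limma adjusted p = 0.015). MSTO-211H went to 82, 202 and 121, higher in 3 of 3 pairs but with overlap (change 0.73, SE 0.21, adjusted p = 0.084). H2052 went to 165 and 144 and H28 to 53, 52 and 29, lower in each pair, with changes of -0.34 (adjusted p = 0.26) and -0.18 (adjusted p = 0.31). Over the sensitive lines the change was 0.47 (SE 0.21, adjusted p = 0.076). Median-of-ratios scaling gave 0.65 (adjusted p = 0.021). Without H2452 the change was 0.12 (adjusted p = 0.62), and it was called without H2052 (0.65, adjusted p = 0.033) or without H28 (0.72, adjusted p = 0.033). CXCL16 overlaps MED11 and ZMYND15 on the other strand, which reached 207 and 52 CP20M, and whether the counting used strand is not given in the sources used here.

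CX3CL1 (ENSG00000006210, chr16:57372477-57385044, plus strand), or fractalkine, was a gene of H28 alone among these lines. H28 held 611, 703 and 703 CP20M under DMSO and 846, 919 and 839 with palbociclib, and no library of another line exceeded 2. The palbociclib values lay above all DMSO values of H28, a change of 0.37 (SE 0.08, limma adjusted p = 0.047) that was under the 1.5-fold limit.

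CXCL12 (ENSG00000107562, chr10:44370165-44386493, minus strand), which binds CXCR4, was highest in MPP89 under DMSO at 155 and 339. H2452 held 107, 64 and 106 and MeT-5A 56, and these neighbours were not separated (adjusted p = 0.21). H2052, H28 and MSTO-211H held 0 to 4. Palbociclib gave 52, 16 and 88 in H2452, lower in 3 of 3 pairs with overlap, a change of -0.89 (SE 0.28, limma adjusted p = 0.082) that was not called. With the filter applied within the H2452 libraries it was called lower (adjusted p = 0.035). It passed that filter only through DMSO libraries (107 and 106), so this call describes it and does not test it.

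CXCL10 (ENSG00000169245, chr4:76021118-76023497, minus strand) and CXCL11 (ENSG00000169248, chr4:76033682-76041415, minus strand), ligands of CXCR3, were found mainly in MPP89. There CXCL10 was at 28 and 30 under DMSO and 16 and 42 with palbociclib, and CXCL11 at 16 and 16 under DMSO and 12 and 26 with palbociclib. In the sensitive lines CXCL10 reached 6 at most and CXCL11 reached 9, in the MSTO-211H washout library. ART3, which overlaps both on the other strand, did not exceed 6 in any library. In a fit with no filter CXCL10 changed by 0.23 over the sensitive lines (SE 0.06, limma adjusted p = 0.017), higher in 8 of 11 pairs, which is under the 1.5-fold limit and rests on values of 0 to 6.

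**Figure D2:**
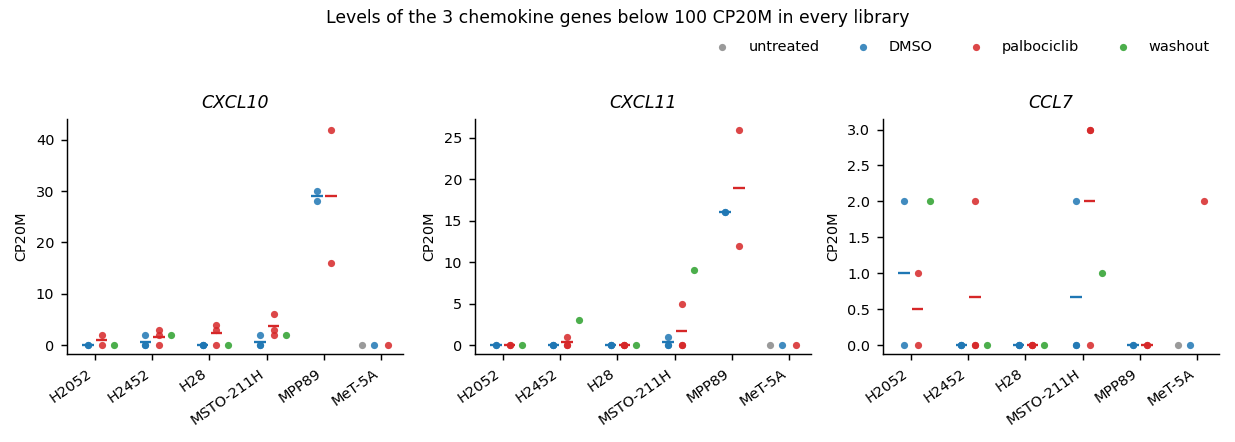
CP20M on a linear axis for the 3 members under 100 CP20M in every library, with 1 point per library and short bars for group means. CXCL10 and CXCL11 lie above 10 only in MPP89, and CCL7 stays at 3 or less.

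Across the sensitive lines 3 of 7 tested members were called higher with palbociclib (CCL2, CCL20 and CCL26) and 0 lower, beside 5.58% of all genes tested called higher and 9.37% called lower. The median change of the 7 was 0.64, beside -0.11 over all genes. With median-of-ratios scaling the median over all genes was 0.06, and CCL2, CCL20 and CCL26 changed by 1.88, 1.35 and 1.20. Since the tested set holds members that passed through palbociclib libraries, these counts describe it and do not test it. Mean changes after 9 days (7 pairs) and 10 days (4 pairs) were 1.58 and 1.95 for CCL2, 1.05 and 1.60 for CCL20 and 0.96 and 1.32 for CCL26, so each was positive at both times. In bulk RNA, more cells with a transcript and more transcript per cell cannot be told apart.

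**Figure D3:**
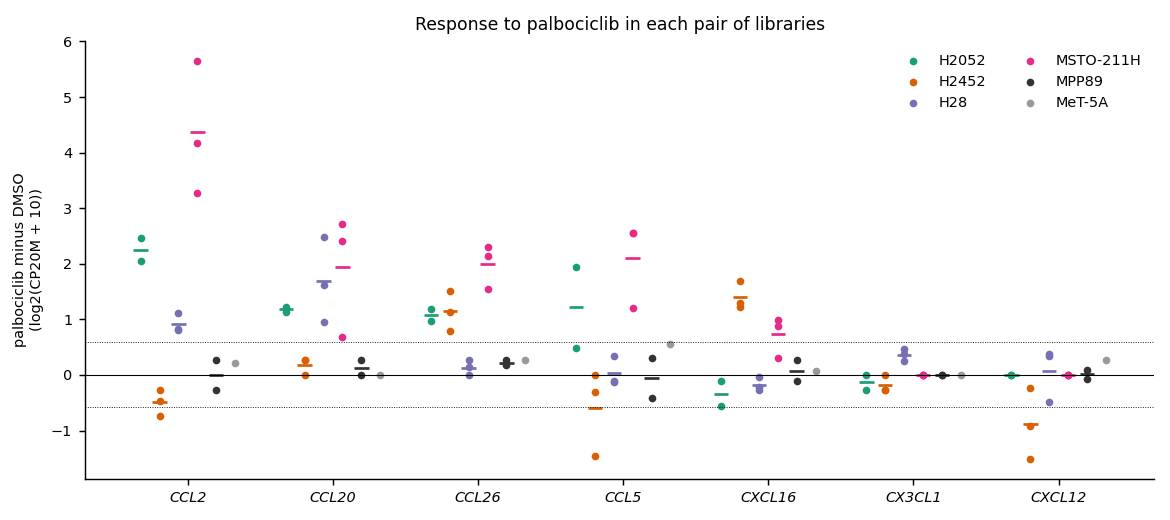
Palbociclib minus DMSO on the log2(CP20M + 10) scale, 1 point per pair, coloured by line. Short bars are line means and dotted lines the 1.5-fold limits. CCL2 ranges from negative values in H2452 to more than 5 in MSTO-211H, while every pair of the resistant lines lies within the 1.5-fold limits.

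By line, the members called higher were as follows. H2052 had CCL2, CCL20 and CCL26 (3 of 7, beside 4.67% of all genes called higher), H2452 had CCL26 and CXCL16 (2 of 7, beside 6.04%), H28 had CCL2 and CCL20 (2 of 7, beside 5.89%) and MSTO-211H had CCL2, CCL5 and CCL26 (3 of 7, beside 5.90%). With no filter the count fell to 1 in H2052, 0 in H28 and 2 in MSTO-211H, where CCL5 was lost (limma adjusted p = 0.058). None of these members was called in all 4 lines. A limma F test of the difference among the sensitive lines was passed by 5 of 7 members, beside 37.1% of all genes, with adjusted p = 0.00028 for CCL2, 0.0017 for CXCL16, 0.0022 for CCL26, 0.0068 for CCL5 and 0.048 for CCL20. CCL20 was lost in 5 of 6 alternatives, and with no replicate block 3 members passed, without CCL5 and CCL20. Leaving out any pair of H28 or of MSTO-211H removed the calls of that line, as did leaving out replicate 1 or 3 of H2452. How many of all genes kept their calls under these alternatives is not given here. The changes themselves stayed of like size, at 3.72 to 4.91 for CCL2, 1.87 to 2.55 for CCL5 and 1.84 to 2.22 for CCL26 in MSTO-211H, 0.82 to 0.97 for CCL2 and 1.29 to 2.05 for CCL20 in H28, and 0.96 to 1.32 for CCL26 and 1.26 to 1.49 for CXCL16 in H2452.

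In the resistant lines 0 of 7 members were called, beside 0% of all genes tested (1258 genes had an unadjusted p under 0.05), and no member had an unadjusted p under 0.05 in limma. CCL5 in MPP89 went from 340 to 252 and from 444 to 550, and CCL26 from 91 to 111 and from 63 to 73. In the MeT-5A pair CCL2 went from 73 to 86, CCL5 from 13 to 24, CCL26 from 5 to 8 and CXCL16 from 369 to 389. On the log2(CP20M + 10) scale 0 of 7 members passed 1.5-fold, with a highest change of 0.56 for CCL5, beside 1.18% of all genes. The test of sensitive against resistant lines called 0 of 7, beside 6.75%. The differences were 1.65 for CCL2 (95% interval -0.61 to 3.90), 1.16 for CCL20 (0.08 to 2.25, adjusted p = 0.16) and 0.85 for CCL26 (-0.03 to 1.74), wide enough that a difference between the classes is neither shown nor bounded closely. CCL20 was the 1 member with an unadjusted p under 0.05.

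After 48 h of washout no tested member was called different from palbociclib, and CCL20 and CCL26 were called above DMSO only with the filter. CCL20 read 39 under DMSO, 104 with palbociclib and 62 after washout in H2052, 12, 113 and 86 in H28, 2, 54 and 79 in MSTO-211H and 0, 2 and 5 in H2452. For CCL26 the same 3 conditions gave 19, 56 and 54 in H2052. H2452 gave 3, 27 and 27, MSTO-211H 10, 89 and 102 and H28 0, 2 and 0. Against DMSO the washout libraries were higher for CCL20 by 1.54 (SE 0.40, limma adjusted p = 0.039) and for CCL26 by 1.28 (SE 0.33, adjusted p = 0.038), which is 2 of 7 members beside 2.81% of all genes called higher. In this fit CCL20 passed the filter only through palbociclib libraries and CCL26 only through a washout library, and with no filter neither was called (adjusted p = 0.074 and 0.077), nor with 50 added before taking logs. Neither call held without H2052 or without MSTO-211H, and CCL20 was also lost without H28 and CCL26 without H2452.

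CCL2 after washout is given by single libraries, and a difference between lines was not tested. It read 91, 408 and 379 in H2052 and 5, 746 and 634 in MSTO-211H. In H28 it read 25, 52 and 23, where DMSO libraries span 15 to 54, and in H2452 478, 284 and 583. CCL5 in MSTO-211H read 22, 177 and 208, and CX3CL1 in H28 read 703, 839 and 663. CXCL16 in H2452 read 81, 213 and 171. Against palbociclib 0 of 7 members were called after washout, beside 1.40% of all genes called higher and 0% lower, and no member had an unadjusted p under 0.05. The 95% interval for CCL2 ran from -2.02 to 1.90, so with 1 library per line a partial return could not be detected.

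**Figure D4:**
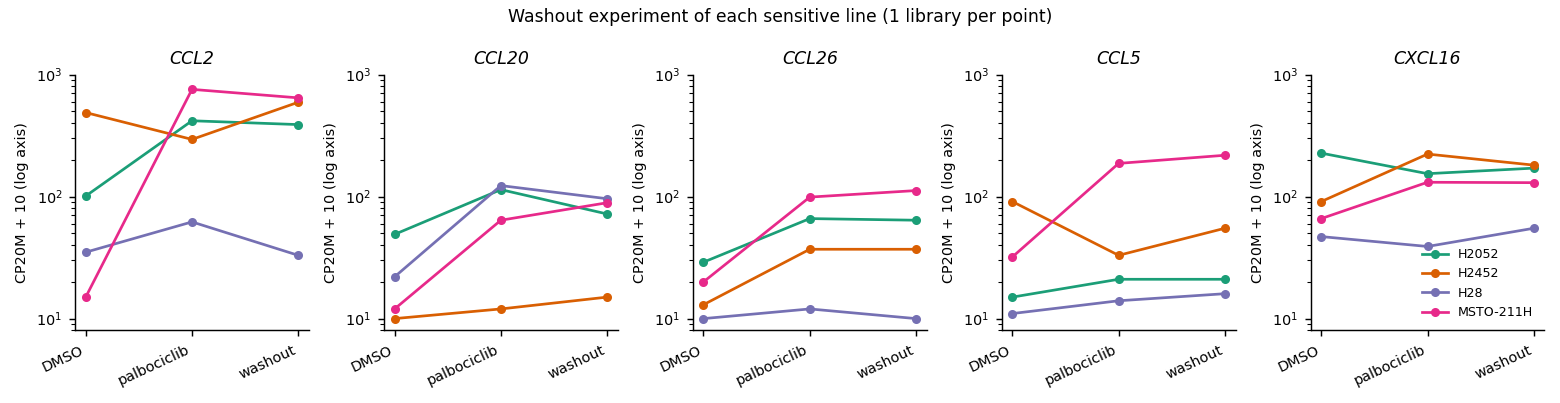
CP20M + 10 on a log axis in the DMSO, palbociclib and washout libraries of the same experiment, with 1 line of points per sensitive cell line. CCL20 and CCL26 stay above DMSO after washout except CCL26 in H28, which is at 0, and CCL2 in H28 is at 25, 52 and 23.

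Of 12 receptors of these chemokines, 2 reached 100 CP20M, and both were called higher with palbociclib over the sensitive lines, beside 5.58% of all genes tested. They entered through their highest library, palbociclib libraries included, so their count, like those of the lists that follow, is a description. CXCR4, the receptor of CXCL12, rose by 1.13 (SE 0.24, limma adjusted p = 0.0020) in 10 of 11 pairs, from a mean of 41 to 145.5 CP20M, and ACKR3, which scavenges CXCL12, rose by 0.73 (SE 0.26, adjusted p = 0.032) in 8 of 11. CCR1, CCR2, CCR3 and CX3CR1 stayed at 7 or less in every library, and CCR6, CXCR3 and CXCR6 at 30, 10 and 53 or less, so the cells hold few transcripts of these receptors.

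Of 33 other chemokine genes 6 were tested and 2 rose, beside 5.58% of all genes called higher: CXCL1 by 1.16 (SE 0.39, limma adjusted p = 0.025) and CXCL8 by 1.24 (SE 0.38, adjusted p = 0.015), attractants of neutrophils. CXCL2 (0.32, adjusted p = 0.32) and CXCL3 (0.55, adjusted p = 0.21), which also attract neutrophils, were not called. Among 5 tested enzymes that shed or trim chemokines, DPP4, which cuts the ends of several of them, rose by 2.43 (SE 0.35, adjusted p = 9.8e-05) in 11 of 11 pairs, while ADAM10 (0.23) and ADAM17 (-0.20), which release CX3CL1 and CXCL16, were not called. Of 12 NF-kB pathway genes, 1 rose, TNFAIP3, an inhibitor of that pathway, by 1.23 (SE 0.26, adjusted p = 0.0019), a share near the 5.58% of all genes. The median of the 12 was -0.15, beside -0.11 over all genes. NFKB1 (-0.42), NFKBIA (-0.51), REL (-0.42), IKBKG (-0.38) and CHUK (-0.23) had adjusted p of 0.0047 or less but were under the 1.5-fold limit. NFKBIZ (0.36), RELA (0.14) and NFKB2 (0.06) went the other way, with limma adjusted p of 0.069 or more. The share of all genes with falls of this size is not given here. Of 12 interferon pathway genes tested, 2 were called higher and 1 lower, beside 5.58% and 9.37% of all genes, and their median was 0.12. Among them IFNGR1, a subunit of the interferon gamma receptor, rose by 0.78 (adjusted p = 8.6e-06) in 11 of 11 pairs. MB21D1, the DNA sensor also named cGAS, fell by 0.80 (adjusted p = 0.00018). CXCL8, DPP4 and TNFAIP3 were also called above DMSO after washout. In the resistant lines 0 genes of these lists were called.

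Genes whose pattern over the 33 libraries was most like a member's were found by Pearson's r of log2(CP20M + 10). These r describe libraries that share lines, so the points are not independent. They were REEP3 (0.87), ANKRD42 (0.84) and B4GALT4 (0.84) for CCL2, KCNC4 (0.91), SHC4 (0.88) and DUSP5 (0.88) for CCL20, and CYB5R2 (0.92), LINC01615 (0.91) and NXF3 (0.90) for CCL26. C11orf87 (0.91), FGF7 (0.90) and LINC01234 (0.89) were nearest to CCL5, and ZNF846 (0.86), DIRAS1 (0.86) and MYL9 (0.85) to CXCL16. UGT2B7 and AP000757.2 were among the nearest to CX3CL1, each at 1.00 when rounded, and ZNF677 (0.96), CCL28 (0.95), itself a chemokine, and AC092070.3 (0.94) to CXCL12.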

How the data were processed

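RNA was sequenced in 33 libraries. The authors trimmed reads with Trimmomatic 0.36, mapped them with STAR 2.5.3 to GRCh38 and counted reads per gene with HTSeq 0.9.1. The deposited values are a normalized score, CP20M, scaled to 20000000 reads and rounded up, and are not counts, so no count model was used. The authors called DE genes with DESeq2.

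For the tests, limma 3.58.1 (eBayes with trend, R 4.3.3) was run on log2(CP20M + 10), after keeping 17803 of 58302 genes with at least 100 CP20M in 1 library. A gene was called at a fold change above 1.5 in either direction and a Benjamini-Hochberg FDR under 0.05 over all genes tested. The experiment was a block, since the methods pair treated and control samples within an experiment. Same-numbered libraries deviated together, with r from 0.18 to 0.78. The washout fit used 12 libraries with the line as a block. The code was tested on simulated data. Coordinates and exon lengths are from GENCODE on GRCh38, another annotation release than the authors'.

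The members and lists were chosen with earlier results of these data known. All 10 members are named, with list genes called over the sensitive lines or after washout, and the 3 nearest genes of each tested member. CCR, ADAM, marker and further list genes, and genes that overlap a member, were named besides. Some genes that this rule names are not reported here. Alternatives covered the pseudocount (1 and 50), the filter, the scaling, the block, the trend, line means as units and leaving out pairs or lines.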

Additional observations from a re-analysis of the deposited data

Results flagged for a closer look

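The response to palbociclib differed among the sensitive lines for 5 members by a limma F test of the difference itself. Adjusted p was 0.00028 for CCL2, 0.0068 for CCL5, 0.048 for CCL20, 0.0022 for CCL26 and 0.0017 for CXCL16. That of CCL20 stayed under 0.05 in 1 of 6 alternatives, and reached 0.13 with no filter. CX3CL1 in H28 is listed for washout minus palbociclib, at -0.34 on the log2(CP20M + 10) scale, because the other 3 sensitive lines are at 0 in both libraries, so that any value in H28 other than 0 would be listed, and this says nothing about its response.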

How the results depend on the processing

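Values of a few CP20M rest on a few reads, and the pseudocount sets how far they move. Over the sensitive lines 3 members were called, which became 1 with pseudocount 50 (CCL2) and 1 with line means as units (CCL20), and 2 to 4 when a pair or a line was left out. In H2052 the 3 calls became 1 with pseudocount 1 and 1 with no filter (CCL2), and no pair could be left out there, since 1 would remain. In H2452 the 2 calls became 1 with pseudocount 50 and 0 to 2 when a pair was left out (0 without replicate 1 or 3). With the filter within the fit they were CXCL16 higher and CXCL12 lower, and CXCL12 passed that filter only through DMSO libraries. In H28 the 2 calls became 0 with pseudocount 50, 0 with no filter and 0 without any 1 pair. In MSTO-211H the 3 calls became 2 with pseudocount 50 and 2 with no filter, as CCL5 was lost in each. Without any 1 pair they became 0, with 2 pairs left. Changes were then 3.72 to 4.91 for CCL2, 1.87 to 2.55 for CCL5 and 1.84 to 2.22 for CCL26. After washout the 2 calls against DMSO became 0 with pseudocount 50, 0 with no filter and 0 to 1 when a line was left out. The cause was not tested. The shares of all genes called under these alternatives, and with no replicate block, are not given here. The counts therefore do not set the members apart from other genes.

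With no replicate block, 0 members were called in H28 (CCL2 adjusted p = 0.21, CCL20 0.056) and 3 differed among the sensitive lines (CCL5 0.059 and CCL20 0.085 were lost). In MSTO-211H CCL5 was then lost (0.080) and CCL20 gained (0.046), all by limma.

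Signs turned only for changes that were not called. CX3CL1 over the sensitive lines became -0.33 with pseudocount 1 and spanned -0.10 to 0.10 when a pair or line was left out, and its difference between classes became -0.33 with pseudocount 1. CXCL12 over the sensitive lines then spanned -0.33 (without H28) to 0.030 (without H2452). In the resistant lines, leaving out a pair gave -0.027 to 0.24 for CCL2, -0.058 to 0.43 for CCL5 and -0.019 to 0.17 for CXCL16. For washout minus palbociclib, pseudocount 50 gave 0.032 for CCL2, 0.011 for CCL26 and -0.033 for CXCL12, pseudocount 1 gave 0.10 for CCL20, and median-of-ratios scaling gave -0.043 for CXCL12 and -0.042 for CXCL16. Leaving out a line there gave -0.41 to 0.23 for CCL2, -0.23 to 0.15 for CCL20, -0.10 to 0.045 for CCL26, -0.046 to 0.092 for CXCL12 and -0.054 to 0.21 for CXCL16. For washout minus DMSO, CXCL12 became -0.056 with pseudocount 50 and -0.081 to 0.22 without a line.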
